A study of Mus musculus with 18 samples.

Results

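Kat7 encodes the catalytic subunit of the HBO1 histone acetyltransferase complexes, and 9 further genes encode the scaffold and accessory proteins it is known to work with. These 10 genes (Kat7, Brd1, Brpf1, Brpf3, Jade1, Jade2, Jade3, Ing4, Ing5 and Meaf6) were chosen by name, as KAT7 and its known partners, from the 27179 genes of the count table. All 10 passed the filter on low counts and were among the 19364 genes tested. RNA was measured in thymic epithelial cells, the stromal cells that support and educate developing T cells, sorted into 3 subsets: cortical cells (cTEC), medullary cells with high MHC class II (mTEChi) and medullary cells with low MHC class II (mTEClo). Each subset came from 3 pools of wildtype mice (WT, pools 1 to 3) and 3 pools of Kat7 knockout mice (KO, pools 4 to 6), all on the C57BL/6 background, which gave 18 libraries in 6 groups. The age of the mice, the number per pool, the Kat7 allele and any Cre driver are not given in the sources used here, so the cells in which Kat7 was deleted cannot be stated. The design text calls the pools biological replicates. The pools of the 2 genotypes are different mice, whereas the 3 subsets of a pool share their mice.

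KAT7 belongs to the MYST family of acetyltransferases. It is placed on chromatin by a scaffold subunit, either a BRPF protein (BRD1, BRPF1 or BRPF3) or a JADE protein (JADE1, JADE2 or JADE3). Complexes with a BRPF scaffold mainly acetylate histone H3, and complexes with a JADE scaffold mainly acetylate histone H4. ING4 and ING5 read methylated histone H3 through a PHD finger, and MEAF6 is a small subunit shared with other MYST complexes. The BRPF proteins also serve the acetyltransferases KAT6A and KAT6B, so their transcripts are not specific to KAT7.

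Library totals ran from 3554089 to 20054360 assigned counts, and the shallowest library was WT mTEChi pool 1. The subset labels were compared with their defining markers, and within each genotype the summed cTEC, mTEChi and mTEClo lists were each highest in the subset they name. Gene by gene, however, the mTEClo list did not separate mTEClo from cTEC. By the test and threshold given below, 2 of its 8 markers were higher and 2 lower in WT mTEClo than in WT cTEC. In KO, 4 were higher and 3 lower. Transcripts of other cell types were present in all libraries, and levels of several marker lists are given beside the results. The 3 general epithelial markers summed to 2207 to 2320 CPM in WT mTEChi and 3265 to 3698.5 CPM in KO mTEChi. In mTEClo the sums were 2185 to 2667 CPM in WT and 3351 to 3640 CPM in KO. In cTEC they were 2160.5 to 2477 CPM in WT and 3113 to 3200 CPM in KO. By the same test, 3 of 3 were called higher in KO in each subset. Their part in the results below was not tested. In bulk RNA, fewer cells of a type and less RNA per cell cannot be told apart. Values below are CPM (counts scaled to the TMM library size), in pool order, and fold changes are log2 values with standard errors (SE) from edgeR's quasi-likelihood test, with p-values adjusted over all 19364 genes. A gene was called at an adjusted p below 0.05.

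Kat7 (chromosome 11, 95271853 to 95310246, GRCm38.p6) was the gene that defined the genotypes, and it was low in all 9 KO libraries. In mTEChi it was at 59.0, 55.7 and 47.9 CPM in WT and at 2.63, 2.88 and 1.47 CPM in KO. In mTEClo it was at 57.6, 38.6 and 43.1 CPM in WT and at 1.96, 0.958 and 0.765 CPM in KO. In cTEC it was at 83.4, 75.4 and 57.7 CPM in WT and at 4.16, 3.24 and 2.26 CPM in KO. WT and KO libraries did not overlap in any subset, and the KO libraries held 10 to 63 Kat7 reads each against 213 to 1422 in WT. Kat7 fell by 4.47 (SE 0.29, adjusted p = 7.52e-09) in mTEChi, fell by 5.28 (SE 0.29, adjusted p = 1.81e-10) in mTEClo and fell by 4.50 (SE 0.26, adjusted p = 8.43e-11) in cTEC. The KO mean was 4.30% of the WT mean in mTEChi, 2.64% in mTEClo and 4.46% in cTEC. Reads from exons left in the allele and reads from cells that kept Kat7 cannot be told apart in counts per gene.

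**Figure D1:**
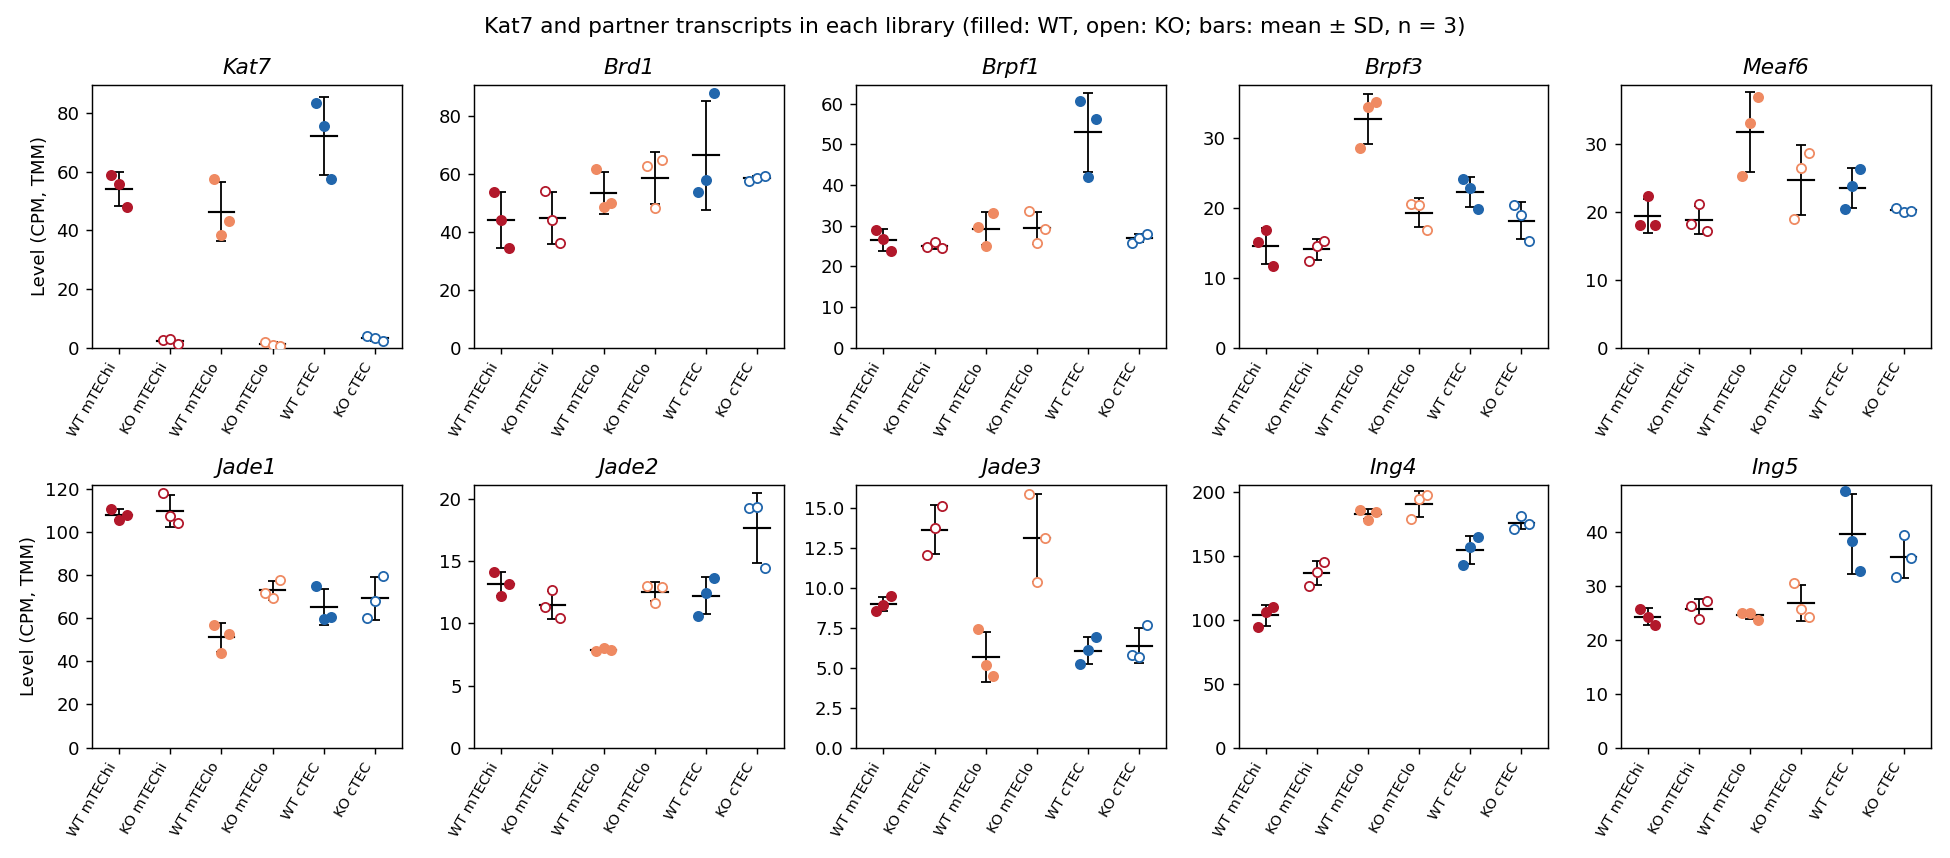
Level of each of the 10 genes in every library, in CPM on a linear axis with its own scale for each gene, by subset and genotype. Points are libraries (n = 3 per group). Kat7 is low in the 9 KO libraries, and its partners stay within a narrow band by comparison.

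The order of Kat7 levels among subsets was cTEC, mTEChi and mTEClo in both genotypes. In WT, Kat7 was at 72.2 ± 13.2 CPM in cTEC, 54.2 ± 5.71 CPM in mTEChi and 46.4 ± 9.93 CPM in mTEClo (mean ± SD, n = 3). It was lower in mTEClo than in cTEC by 0.63 (log2, SE 0.22, adjusted p = 0.0354), and the call was lost without WT cTEC pool 1 or 2 or without WT mTEClo pool 2 or 3 (adjusted p of 0.116, 0.0722, 0.145 and 0.113). Neither neighbouring pair in that order was called: mTEChi against cTEC gave -0.42 (adjusted p = 0.1) and mTEChi against mTEClo gave 0.21 (adjusted p = 0.42). With the mouse pool as a block, mTEChi against cTEC was called (adjusted p = 0.0191). In KO the remaining Kat7 signal was at 3.22 ± 0.949 CPM in cTEC, 2.33 ± 0.753 CPM in mTEChi and 1.23 ± 0.642 CPM in mTEClo. The KO mTEClo level was lower than in KO cTEC (-1.42, SE 0.32, adjusted p = 0.00156). KO mTEChi was higher than KO mTEClo (1.02, SE 0.36, adjusted p = 0.0271), although the libraries overlapped. This call was lost when only the compared groups were fitted (adjusted p = 0.0543) and without KO mTEChi pool 4 or 5 or KO mTEClo pool 5 or 6 (adjusted p of 0.0704, 0.157, 0.0929 and 0.128). Thymocyte markers summed to 282 to 464 CPM in KO cTEC, 81.7 to 103 CPM in KO mTEChi and 59.7 to 72.4 CPM in KO mTEClo. Macrophage and dendritic cell markers, in the same order, summed to 33.9 to 43.4 CPM, 798 to 942 CPM and 99.5 to 129 CPM. The part of these cells in the remaining Kat7 signal was not tested.

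The levels of the 10 genes can be compared per length, as RPKM (CPM divided by gene length in kilobases) averaged over all 18 libraries. Ing4 was by far the most abundant at 97.3 RPKM, a level at the 95.5th percentile of tested genes, followed by Meaf6 at 26.3 RPKM. Among the scaffolds, Jade1 was at 13.3 RPKM, Brd1 at 10.6 RPKM, Brpf1 at 7.15 RPKM, Jade3 at 3.64 RPKM, Brpf3 at 3.39 RPKM and Jade2 at 2.05 RPKM. Ing5 was at 6.47 RPKM and Kat7, averaged over both genotypes, at 5.02 RPKM. The accessory subunits Ing4 and Meaf6 were thus above every scaffold on this scale. Partner levels varied little between groups: the range of the 6 group means was 0.58 to 1.26 on the log2 scale, against a median of 1.60 over all tested genes, while Kat7 spanned 5.78.

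The subset comparisons in WT were the base for the KO results, and in them the JADE genes and Brpf3 went opposite ways between the medullary subsets. In WT mTEChi against WT mTEClo, 3 of the 9 partners were higher and 3 lower, where 59.3% of all tested genes were called in either direction (32.6% higher, 26.7% lower) and 68.3% had groups that did not overlap. All 3 JADE genes were higher in mTEChi, and Brpf3, Ing4 and Meaf6 were lower. Jade1 (chromosome 3, 41555734 to 41616864), which encodes a scaffold with PHD fingers, was at 110, 105 and 108 CPM in mTEChi and at 56.9, 43.9 and 52.6 CPM in mTEClo. The groups did not overlap, and the difference was 1.07 (SE 0.13, adjusted p = 5.89e-07). Jade2 (chromosome 11, 51813448 to 51859011), a related scaffold, was at 14.1, 12.2 and 13.2 CPM in mTEChi and at 7.76, 8.03 and 7.88 CPM in mTEClo (0.73, SE 0.18, adjusted p = 0.00193). Jade3 (chromosome X, 20425312 to 20519939), the third JADE scaffold, was at 8.58, 8.91 and 9.49 CPM in mTEChi and at 7.46, 5.18 and 4.46 CPM in mTEClo (0.65, SE 0.24, adjusted p = 0.028). The Jade3 call was lost without the filter on low counts (adjusted p = 0.0672) and without pool 2 or 3 of either subset, with adjusted p-values of 0.0526 and 0.0704 for mTEChi and 0.0829 and 0.121 for mTEClo.

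Brpf3 (chromosome 17, 28801126 to 28838789), a BRPF scaffold, was lower in mTEChi, at 15.2, 16.9 and 11.8 CPM, than in mTEClo, at 28.7, 34.6 and 35.2 CPM (-1.17, SE 0.17, adjusted p = 1.06e-05). The 2 sets of libraries did not overlap. Ing4 (chromosome 6, 125039848 to 125049265), the histone reader, was at 94.4, 106 and 110 CPM in mTEChi and at 186, 178 and 184 CPM in mTEClo (-0.82, SE 0.10, adjusted p = 5.44e-07). Meaf6 (chromosome 4, 125085113 to 125113238), the small shared subunit, was at 18.0, 22.3 and 18.0 CPM in mTEChi and at 25.3, 33.0 and 36.9 CPM in mTEClo (-0.69, SE 0.18, adjusted p = 0.00262). Both accessory subunits were therefore lower in every mTEChi library than in every mTEClo library. Brd1 (chromosome 15, 88687034 to 88734228) and Brpf1 (chromosome 6, 113306863 to 113324862), the other BRPF scaffolds, and Ing5 (chromosome 1, 93803926 to 93822101), the other ING reader, were not called here, with 95% intervals of -0.71 to 0.11, -0.47 to 0.17 and -0.34 to 0.29. Macrophage and dendritic cell markers were between 1511 and 1566 CPM in WT mTEChi against 123 to 144 CPM in WT mTEClo and 141 to 215 CPM in WT cTEC, with 8 of 8 tested markers called higher in mTEChi than in mTEClo. Cell cycle markers were between 404 and 482 CPM in WT mTEChi and between 58.7 and 80.6 CPM in WT mTEClo, with 8 of 8 called higher, and 10 of 12 thymocyte markers were called higher. Dissociation genes were between 5931 and 7254 CPM in WT mTEChi and between 17577 and 21902 CPM in WT mTEClo, with 10 of 10 called lower. The part of these lists in the differences between WT subsets was not tested.

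**Figure D2:**
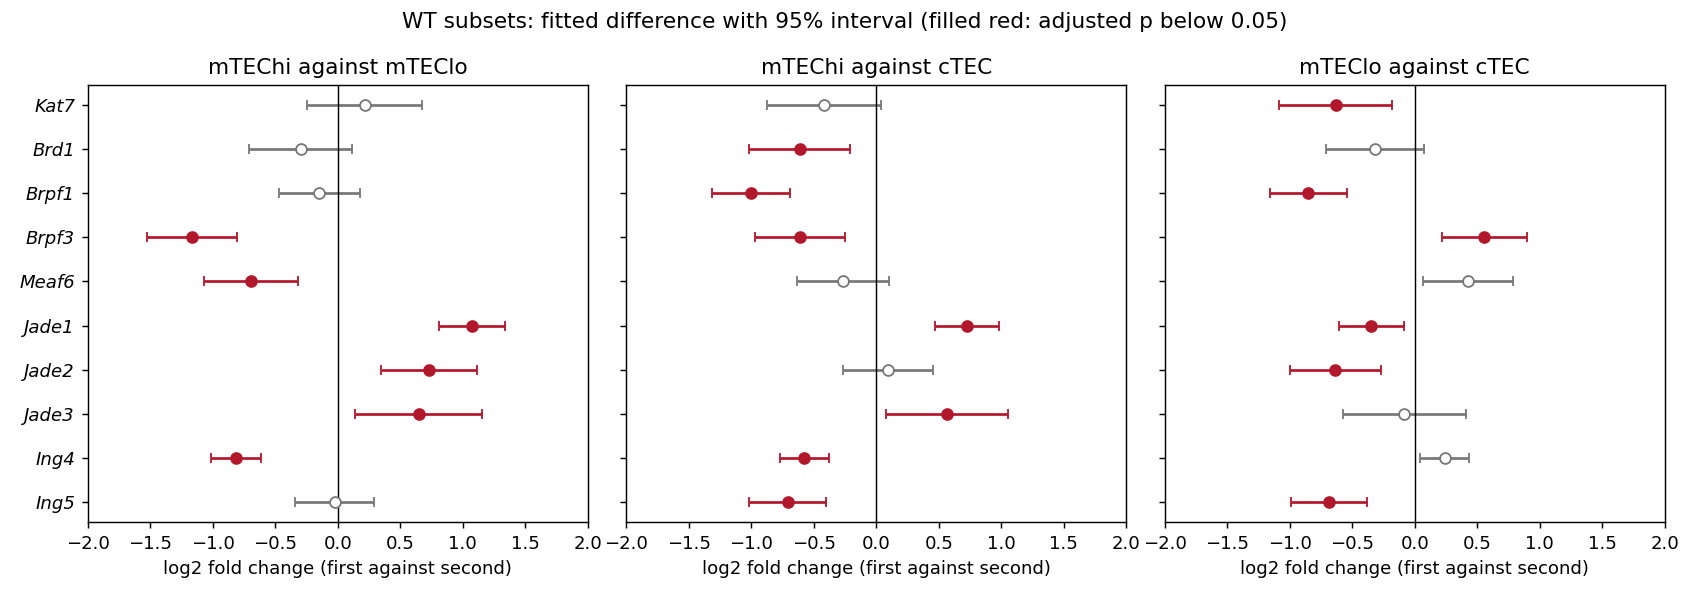
Log2 fold change of the 10 genes between WT subsets, with 95% intervals from the edgeR fit; filled points were called. All 3 JADE genes lie to the right in mTEChi against mTEClo, and Brpf3, Ing4 and Meaf6 lie to the left.

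Brpf1 and Ing5 were highest in the cortical subset. In WT mTEChi against WT cTEC, 2 partners were higher and 5 lower, where 64.4% of all tested genes were called (35.9% higher, 28.5% lower) and 66.5% had groups that did not overlap. In WT mTEClo against WT cTEC, 1 partner was higher and 4 lower, where 27.4% of all tested genes were called (13% higher, 14.4% lower) and 34.5% had groups that did not overlap. Brpf1 was at 60.5, 42.0 and 56.3 CPM in WT cTEC, above all 6 WT medullary libraries, which lay between 23.7 and 33.2 CPM. The difference from cTEC was -1.0 (SE 0.15, adjusted p = 9.6e-06) in mTEChi and -0.85 (SE 0.15, adjusted p = 0.000279) in mTEClo. Ing5 was at 47.4, 38.3 and 32.7 CPM in WT cTEC and between 22.6 and 25.8 CPM in the WT medullary libraries (-0.71, adjusted p = 0.000298, and -0.69, adjusted p = 0.00154). Both genes were thus higher in cTEC than in either medullary subset, with no overlap of libraries. Dissociation genes lay between 23313 and 31378 CPM in WT cTEC. Against WT cTEC, 10 of 10 of them were called lower in WT mTEChi and 6 of 10 in WT mTEClo, with 0 higher. Of 12 thymocyte markers, 3 were higher and 4 lower in WT mTEChi, and 0 higher and 9 lower in WT mTEClo. The part of these lists in the differences from cTEC was not tested.

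Brpf3 was lower in mTEChi than in cTEC (-0.61, adjusted p = 0.00411) and higher in mTEClo than in cTEC (0.56, adjusted p = 0.0149). The second of these calls was lost without WT mTEClo pool 2 or 3 (adjusted p of 0.0612 and 0.0611). Jade1 was higher in mTEChi than in cTEC (0.73, adjusted p = 4.05e-05) and lower in mTEClo than in cTEC (-0.35, adjusted p = 0.0442). The latter was lost when only the compared groups were fitted (adjusted p = 0.121) and without WT cTEC pool 1, WT mTEClo pool 2 or WT mTEClo pool 3 (adjusted p of 0.201, 0.192 and 0.0805). Jade2 was lower in mTEClo than in cTEC (-0.64, adjusted p = 0.0108), and Ing4 was lower in mTEChi than in cTEC (-0.57, adjusted p = 2.97e-05). The Jade2 call was lost in a fit of these groups alone (adjusted p = 0.0783). Brd1 was lower in mTEChi than in cTEC (-0.61, adjusted p = 0.009), a call that was lost without WT cTEC pool 3 (adjusted p = 0.0744), the library with the highest Brd1 level at 88.2 CPM, or without WT mTEChi pool 3 (adjusted p = 0.0761). Jade3 was higher in mTEChi than in cTEC (0.56, adjusted p = 0.0409), and 7 of 11 alternatives ended that call, with adjusted p-values up to 0.129; the libraries among them were WT cTEC pools 1 and 2 and WT mTEChi pools 1, 2 and 3. With the mouse pool as a block, Ing4 (0.25, adjusted p = 0.0375) and Meaf6 (0.43, adjusted p = 0.0457) were also called higher in WT mTEClo than in WT cTEC; without the block they were not (adjusted p of 0.0611 and 0.0695).

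The sequences upstream of the start sites of Kat7, Jade1, Jade3 and Brpf3 are shown because they belong to the catalytic gene, to 2 of the JADE scaffolds that rose in KO mTEClo and to the BRPF scaffold that fell there. They come from RefSeq (GRCm38.p6), whose table matched 9 of the 10 genes, and each window holds up to 250 bases before a start site, read 5′ to 3′ on the strand of the gene and shortened where an annotated exon began. The windows are chr11:95310247-95310496 (minus strand) for Kat7, chr3:41555484-41555730 (plus strand) for the first Jade1 start, chrX:20425438-20425687 (plus strand) for Jade3 and chr17:28800876-28801089 (plus strand) for Brpf3. Capitals mark matches on either strand to the GC box GGGCGG, the motif CCAAT, the ETS core CCGGAA or the TATA box TATAAA.
Kat7: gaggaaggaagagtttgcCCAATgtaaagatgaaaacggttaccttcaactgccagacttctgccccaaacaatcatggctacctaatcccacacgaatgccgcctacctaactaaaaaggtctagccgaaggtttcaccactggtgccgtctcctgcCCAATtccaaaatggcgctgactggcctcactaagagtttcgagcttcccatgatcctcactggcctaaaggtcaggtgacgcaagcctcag
Jade1: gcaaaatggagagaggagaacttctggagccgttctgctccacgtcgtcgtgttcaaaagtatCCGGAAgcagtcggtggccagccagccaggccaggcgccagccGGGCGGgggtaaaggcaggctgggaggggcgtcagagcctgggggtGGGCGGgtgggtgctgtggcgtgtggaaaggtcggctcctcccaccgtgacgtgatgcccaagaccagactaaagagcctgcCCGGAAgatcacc
Jade3: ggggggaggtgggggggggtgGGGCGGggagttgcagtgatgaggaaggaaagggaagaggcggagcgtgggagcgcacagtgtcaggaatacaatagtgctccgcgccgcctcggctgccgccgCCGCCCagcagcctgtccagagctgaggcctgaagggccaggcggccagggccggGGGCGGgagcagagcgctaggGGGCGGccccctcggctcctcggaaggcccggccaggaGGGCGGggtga
Brpf3: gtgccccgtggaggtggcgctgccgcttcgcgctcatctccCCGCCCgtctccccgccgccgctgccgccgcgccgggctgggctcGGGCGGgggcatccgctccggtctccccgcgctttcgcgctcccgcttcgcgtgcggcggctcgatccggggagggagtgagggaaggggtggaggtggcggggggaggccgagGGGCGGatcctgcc

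The Kat7 window held 2 CCAAT matches, at 232 and 92 bases upstream of the start, no GC box and 8 CpG dinucleotides. The Jade3 window held 5 GC boxes and 20 CpG dinucleotides, and the Brpf3 window held 3 GC boxes and 34 CpG dinucleotides over its full 250 bases. The first Jade1 window held 2 GC boxes and 2 ETS cores. The median over all 32851 promoters of the table was 6 CpG dinucleotides. Among those promoters, 32.7% held a GC box, 33.8% CCAAT, 12% an ETS core and 12.4% TATAAA. A match describes letters in the window and is not evidence of binding.

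The central question of the design was what loss of Kat7 does in each subset, and among the partners the JADE and BRPF calls went in opposite directions. Of the 9 partners, 3 were higher and 1 lower in KO mTEClo, where 34.7% of all tested genes were called (18.9% higher, 15.8% lower) and 49.3% had groups that did not overlap. In KO mTEChi, 1 partner was higher and 0 lower, where 36.4% of all tested genes were called (17.1% higher, 19.3% lower) and 55.9% had groups that did not overlap. In KO cTEC, 1 was higher and 1 lower, where 49% of all tested genes were called (22.3% higher, 26.7% lower) and 51% had groups that did not overlap. Over the 27 partner results, 5 were higher, 2 lower and 20 not called, and the count of called partners was near the background in mTEClo and below it in mTEChi and cTEC. All 4 called JADE results were higher in KO and both called BRPF results were lower. Brd1, Ing5 and Meaf6 were called in no subset.

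**Figure D3:**
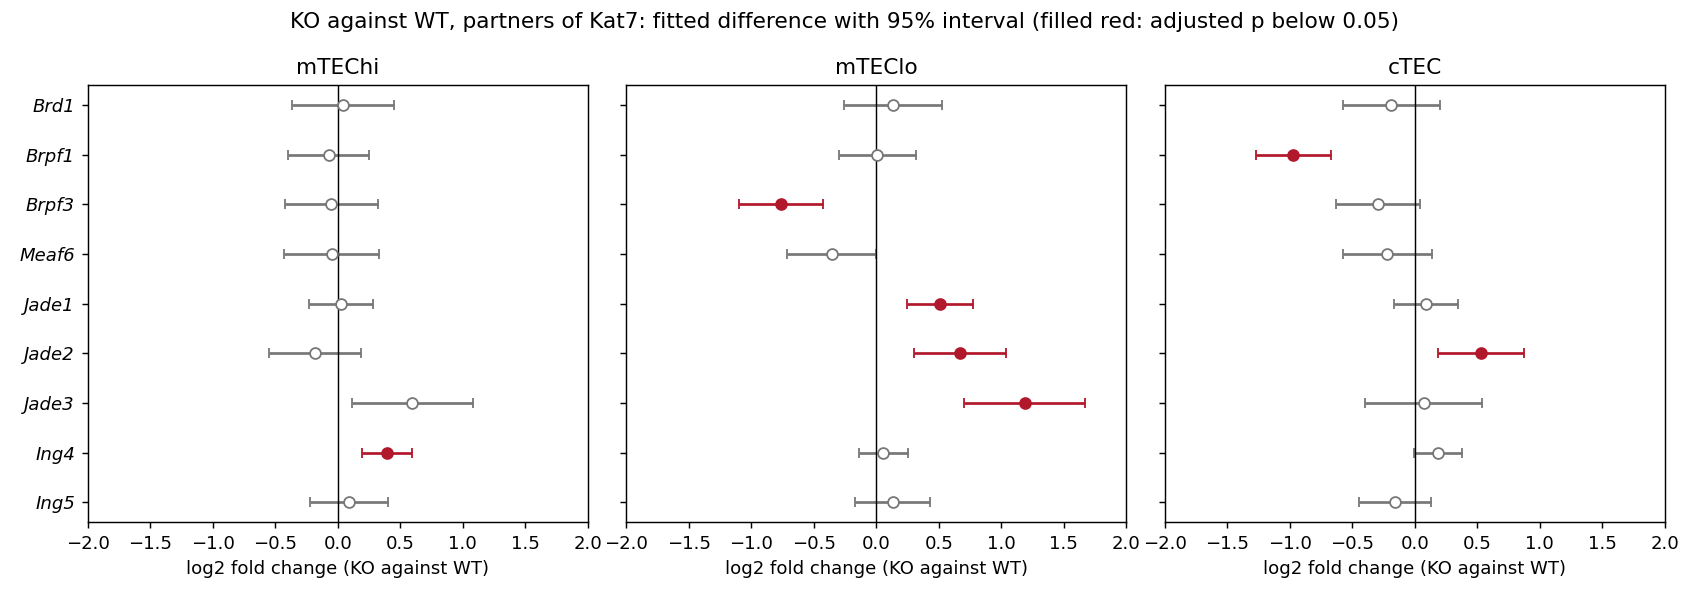
Log2 fold change of the 9 partners in KO against WT in each subset, with 95% intervals from the edgeR fit. Filled points were called, and Kat7 is not drawn. The JADE calls lie to the right in mTEClo and cTEC, and Brpf3 (mTEClo) and Brpf1 (cTEC) lie to the left.

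In mTEClo, all 3 JADE genes rose and Brpf3 fell. Jade3 was at 7.46, 5.18 and 4.46 CPM in WT and at 15.9, 10.4 and 13.2 CPM in KO (1.19, SE 0.23, adjusted p = 0.000488). Jade2 was at 7.76, 8.03 and 7.88 CPM in WT and at 13, 11.7 and 12.9 CPM in KO (0.67, SE 0.18, adjusted p = 0.00551). Jade1 was at 56.9, 43.9 and 52.6 CPM in WT and at 71.7, 69.3 and 77.7 CPM in KO (0.51, SE 0.13, adjusted p = 0.00339). Every KO library was above every WT library for each of the 3 genes. Brpf3 was at 28.7, 34.6 and 35.2 CPM in WT and at 20.6, 20.5 and 16.9 CPM in KO (-0.76, SE 0.16, adjusted p = 0.00111), again with no overlap. These 4 calls held in all 10 alternatives. Meaf6 was not called (-0.36, adjusted p = 0.116), but passed without WT mTEClo pool 1 (adjusted p = 0.0403).

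The KO mTEClo libraries also differed from WT in markers of their own subset and of other cells and states, and the part of these in the JADE and Brpf3 results was not tested. The subset's own mTEClo markers lay between 4873 and 5349 CPM in WT and between 4187 and 4502 CPM in KO, with 3 of 8 called higher and 1 lower. Fibroblast and mural markers lay between 1065 and 1209 CPM in WT and between 697 and 792 CPM in KO, with 3 of 8 called higher and 3 lower. The summed mTEChi marker list was between 2452 and 2621 CPM in WT mTEClo and between 1480 and 1759 CPM in KO mTEClo, with 2 markers called higher and 4 lower. The cTEC marker list was between 1639 and 2073 CPM in WT and between 2080 and 2381 CPM in KO, with 6 of 7 called higher. Most of the mTEChi sum came from an MHC class II gene, at a mean of 2205 CPM in WT mTEClo and 1420 CPM in KO mTEClo. Thymocyte markers were between 30.6 and 43.6 CPM in WT and between 59.7 and 72.4 CPM in KO, with 3 of 12 called higher. Genes induced by tissue dissociation were between 17577 and 21902 CPM in WT and between 11055 and 11886 CPM in KO, with 6 of 10 called lower. Endothelial markers lay between 20.5 and 28.2 CPM in WT and between 53.2 and 73.6 CPM in KO. Only 2 of these 5 markers were tested, and 1 was called higher. The 2 mitochondrial genes in the table took 0.263% to 0.472% of counts in WT and 0.144% to 0.196% in KO. No marker of these lists was at 0 in all libraries of a group.

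In cTEC, Brpf1 fell and Jade2 rose. Brpf1 was at 60.5, 42.0 and 56.3 CPM in WT and at 25.9, 27.1 and 28.0 CPM in KO (-0.97, SE 0.14, adjusted p = 1.69e-05). The KO cTEC level of Brpf1 lay within the range of the medullary libraries, which ran from 23.7 to 33.6 CPM over both genotypes, and the call held in all 10 alternatives. Jade2 was at 10.6, 12.5 and 13.6 CPM in WT and at 19.3, 19.4 and 14.5 CPM in KO, with no overlap (0.53, SE 0.16, adjusted p = 0.0115). The Jade2 call was lost in a fit restricted to the compared groups (adjusted p = 0.0783) and without WT cTEC pool 1, KO cTEC pool 4 or KO cTEC pool 5 (adjusted p of 0.0525, 0.0573 and 0.0577). Jade2 was the only partner called in 2 subsets.

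The cTEC libraries of the 2 genotypes differed in several marker lists, whose part in the Brpf1 and Jade2 results was not tested. The cTEC markers lay between 3994 and 6761 CPM in WT cTEC and between 8562 and 12666 CPM in KO cTEC, with 6 of 7 called higher. The mTEClo markers lay between 3909 and 4292 CPM in WT and between 2623 and 3015 CPM in KO, with 5 of 8 called lower and 1 higher, and 4 of 7 mTEChi markers were called lower. Endothelial markers lay between 22.7 and 39.9 CPM in WT and between 7.77 and 8.73 CPM in KO, with 1 of the 2 tested called lower. Thymocyte markers were between 57.1 and 143 CPM in WT cTEC and between 282 and 464 CPM in KO cTEC, with 10 of 12 called higher. Macrophage and dendritic cell markers were between 141 and 215 CPM in WT and between 33.9 and 43.4 CPM in KO, with 4 of 8 called lower. Fibroblast and mural markers were between 1079 and 1326 CPM in WT and between 2405 and 2542 CPM in KO, with 2 of 8 called higher and 5 lower, so that the sum and most of its members went opposite ways. Cell cycle markers were between 52.0 and 89.9 CPM in WT and between 95.6 and 137 CPM in KO, with 5 called higher, and dissociation genes were between 23313 and 31378 CPM in WT and between 14382 and 20429 CPM in KO, with 6 called lower.

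In mTEChi, Ing4 was the only partner called. It was at 94.4, 106 and 110 CPM in WT and at 126, 137 and 145 CPM in KO, with no overlap (0.39, SE 0.10, adjusted p = 0.00379), and the call held in all 10 alternatives. The mTEClo marker list was between 1959 and 2333 CPM in KO mTEChi against 787 to 953 CPM in WT mTEChi, with 7 of 8 markers called higher. The cTEC marker list was between 1391 and 1489 CPM in WT mTEChi and between 2139 and 2431 CPM in KO mTEChi, with 6 of 7 called higher. Macrophage and dendritic cell markers were between 1511 and 1566 CPM in WT mTEChi and between 798 and 942 CPM in KO mTEChi, with 6 called lower. The subset's own mTEChi markers lay between 9717 and 10329 CPM in WT and between 6488 and 6767 CPM in KO, with 4 of 7 called lower, and cell cycle markers lay between 404 and 482 CPM in WT and between 246 and 337 CPM in KO, with 4 of 8 called lower. Fibroblast and mural markers lay between 293 and 312 CPM in WT and between 544 and 637 CPM in KO, with 2 of 8 called higher and 3 lower. Endothelial markers lay between 31.0 and 36.3 CPM in WT and between 64.4 and 70.6 CPM in KO, with 1 of the 2 tested called higher. The 2 mitochondrial genes in the table took 0.223% to 0.270% of counts in WT and 0.0921% to 0.175% in KO. The part of these lists in the Ing4 result was not tested. Jade3 was at 8.58, 8.91 and 9.49 CPM in WT mTEChi and at 12.1, 13.7 and 15.2 CPM in KO mTEChi, with no overlap, but was not called (0.60, SE 0.23, adjusted p = 0.0505). It passed without the filter on low counts (adjusted p = 0.0496) and when only the compared groups were fitted (adjusted p = 0.0131).

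The partners that were not called had intervals that bound the size of a change. Over the 3 subsets, the 95% intervals of the KO effect ran from -0.57 to 0.52 for Brd1, from -0.45 to 0.43 for Ing5 and from -0.71 to 0.33 for Meaf6. Changes within these bounds were not resolved with 3 pools per group. Jade3 is X-linked. Transcripts of Y-linked genes had reads in 18 of 18 libraries, with Ddx3y between 96.6 and 148 CPM, and Xist was between 1.55 and 17.4 CPM. In cTEC, Xist was at 5.31 to 10.5 CPM in WT and 15.4 to 17.4 CPM in KO. It overlapped between genotypes in both medullary subsets. Of 5 sex-linked genes, 1 was higher in KO mTEChi, 1 in KO mTEClo and 3 in KO cTEC, with 0 lower. Over all tested genes, 17.1%, 18.9% and 22.3% were higher. The part of the sex of the mice in the Jade3 values was not tested.

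The same subset comparisons were made in the KO mice, and the partners called were not all those called in WT. Such a contrast of calls is not a test of a difference, which the differences in KO effect given below provide. In KO mTEChi against KO mTEClo, Jade1 (0.59, adjusted p = 0.000543) was the only partner called higher, while Brpf3 (-0.46, adjusted p = 0.0319) and Ing4 (-0.48, adjusted p = 0.000306) were lower, where 45.3% of all tested genes were called (23% higher, 22.4% lower). The Brpf3 call was lost in 7 of 11 alternatives: with RLE scaling (adjusted p = 0.0873), with DESeq2 itself (0.0888), in a fit restricted to the compared groups (0.0665), and without KO mTEChi pool 4 or 5 or KO mTEClo pool 4 or 5 (0.135, 0.0675, 0.0899 and 0.0953). In KO mTEChi against KO cTEC, Jade1 (0.67, adjusted p = 0.0001) and Jade3 (1.09, adjusted p = 0.000319) were higher and Jade2 (-0.62, adjusted p = 0.0036), Ing4 (-0.37, adjusted p = 0.00213) and Ing5 (-0.46, adjusted p = 0.00876) were lower, where 62.4% of all tested genes were called (34% higher, 28.4% lower). The Ing5 call was lost without KO mTEChi pool 5 (adjusted p = 0.0603). In KO mTEClo against KO cTEC, Jade3 (1.03, adjusted p = 0.000866) was higher and Jade2 (-0.50, adjusted p = 0.0218) and Ing5 (-0.40, adjusted p = 0.0301) were lower, where 37% of all tested genes were called (21.2% higher, 15.8% lower). The Jade2 call was lost without KO cTEC pool 4 or 5 or KO mTEClo pool 5 (adjusted p of 0.105, 0.0975 and 0.0847), and the Ing5 call without pool 5 or 6 of either subset (adjusted p of 0.142 and 0.0646 for cTEC, and 0.0919 and 0.13 for mTEClo).

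Whether the KO effect itself differed between subsets was tested by interaction terms. The KO effect on Brpf1 was less negative than in cTEC both in mTEChi (difference 0.90, SE 0.21, adjusted p = 0.00301) and in mTEClo (difference 0.98, SE 0.21, adjusted p = 0.00158). The KO effect on Jade3 was larger in mTEClo than in cTEC (difference 1.12, SE 0.32, adjusted p = 0.0147), a call that was lost without KO mTEClo pool 4 (adjusted p = 0.0504). The KO effect on Jade2 was lower in mTEChi than in mTEClo (difference -0.85, SE 0.25, adjusted p = 0.0267) and lower in mTEChi than in cTEC (difference -0.71, SE 0.24, adjusted p = 0.0295). The first Jade2 call was lost without the filter on low counts (adjusted p = 0.0712) and, with adjusted p-values of 0.0522 to 0.0673, without any 1 of WT mTEChi pools 1 and 3, WT mTEClo pools 1, 2 and 3, and pools 4 and 6 of KO mTEChi and KO mTEClo. The second was lost without the filter (adjusted p = 0.0905), in a fit restricted to the compared groups (0.118) and, with adjusted p-values of 0.0677 to 0.0867, without any 1 of WT cTEC pool 1, WT mTEChi pools 1 and 3, KO cTEC pools 4 and 5, and KO mTEChi pools 4 and 6. In all, 1 partner was called for mTEChi against mTEClo, where 13.5% of all tested genes were called (6.72% higher, 6.78% lower). For mTEChi against cTEC 2 were called, beside 31.5% (18.3% higher, 13.2% lower). For mTEClo against cTEC 2 were called, beside 26% (16.4% higher, 9.54% lower). With the mouse pool as a block, the differences in KO effect between mTEChi and mTEClo were also called for Brpf3 (0.72, adjusted p = 0.0492) and Jade1 (-0.49, adjusted p = 0.0433), and those between mTEClo and cTEC for Kat7 (-0.79, adjusted p = 0.0345) and Jade1 (0.43, adjusted p = 0.0497).

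The balance of the 2 scaffold families was summarised as the share of JADE transcripts in the summed RPKM of the 6 scaffolds. This share is a description, with no test. In mTEChi its mean was 58.6% in WT (55.5% to 63.2% over libraries) and 60.8% in KO (59.3% to 62.6%), with overlap. In mTEClo it was 35% in WT (34.0% to 37.1%) and 48.0% in KO (47.0% to 48.7%). In cTEC it was 35.2% in WT (31.5% to 37.2%) and 45.4% in KO (43.3% to 48.0%). KO libraries lay above WT libraries without overlap in mTEClo and cTEC, and every mTEChi library lay above all libraries of the other subsets. The parts of the share differed between those subsets. In mTEClo the summed JADE level was 10.8 to 13.8 RPKM in WT and 17.7 to 20.6 RPKM in KO, while the BRPF sums overlapped (20.9 to 23.5 and 18.7 to 23.3 RPKM). In cTEC the summed BRPF level was 24.6 to 33.2 RPKM in WT and 20.4 to 20.7 RPKM in KO, while the JADE sums overlapped (14.6 to 16.5 and 15.6 to 18.9 RPKM).

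**Figure D4:**
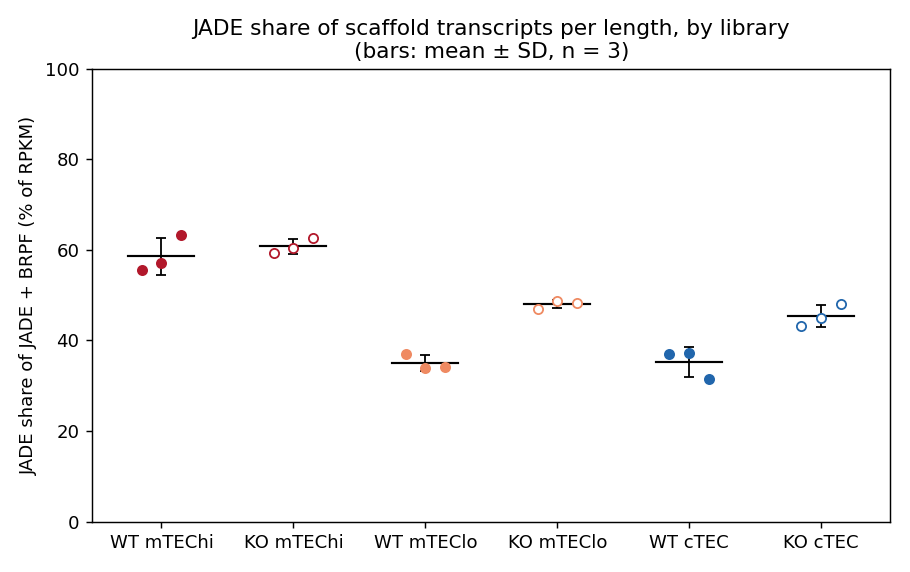
Share of JADE1, JADE2 and JADE3 transcripts in the summed RPKM of the 6 scaffold genes, in percent, by library; lines and bars are means ± SD (n = 3). The KO libraries lie above the WT libraries in mTEClo and cTEC and overlap with them in mTEChi.

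Across the 18 libraries, the closest opposed pair among the 45 pairs of the 10 genes was Brpf3 and Jade1, with a Pearson r of -0.894 on log2 values. The highest positive value was 0.762, for Brpf3 and Meaf6. These are descriptions: the libraries fall into 6 groups, the subsets of a pool share mice, and all values share library depth. WT mTEClo had the highest Brpf3 and lowest Jade1 levels, mTEChi of both genotypes had the opposite, and KO mTEClo lay among the cTEC libraries.

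**Figure D5:**
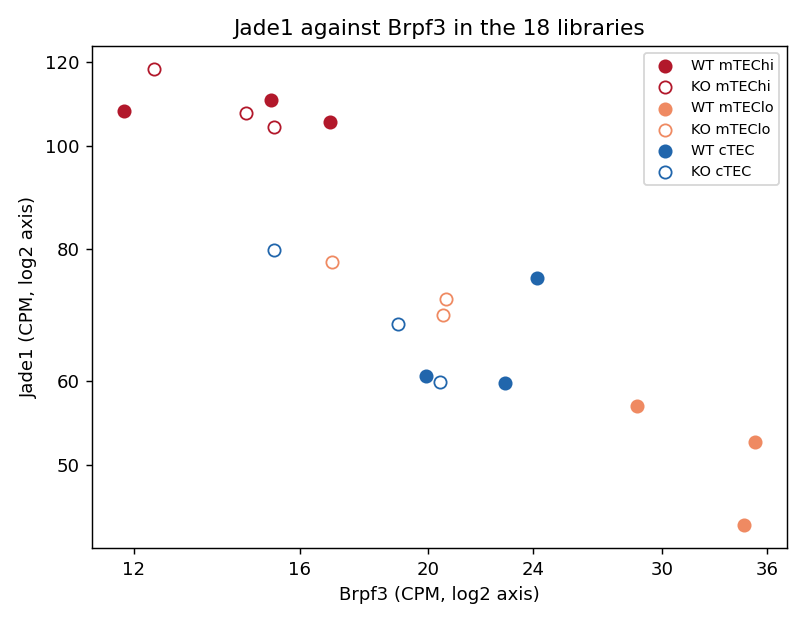
Jade1 against Brpf3 in the 18 libraries, both in CPM on log2 axes; colours give the subset, filled points WT and open points KO. The mTEChi libraries lie at the upper left, WT mTEClo at the lower right and KO mTEClo between them.

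The genes most like Kat7 over all 18 libraries, of 12517 compared, were Col5a1 (r = 0.967), Heph (0.966), Myo5a (0.955), Zfp970 (0.954) and Zfp318 (0.944). Over the 9 WT libraries alone they were Kbtbd7 (0.98), Tollip (0.972), Npnt (0.962), Pgm1 (0.96) and Slc4a4 (0.959), so the 2 lists share 0 genes. Kat7 was low in all 9 KO libraries, so the first list largely follows the difference between genotypes. The second rests on 9 libraries in 3 groups. Both give the highest values among 12517 genes and are descriptions with no test. For the partners that changed, the closest genes were Eif2b5 (0.962) for Jade1, Nqo1 (0.897) for Jade2, Reep6 (0.94) for Jade3, Slc43a2 (0.946) for Brpf3, Os9 (0.944) for Brpf1 and Mpv17l (0.964) for Ing4.

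Genes of related function were counted in lists made up by known function. Of the 4 other MYST acetyltransferases (Kat5, Kat6a, Kat6b and Kat8), 1 was higher and 0 lower in KO mTEChi. In KO mTEClo 0 were called, and in KO cTEC 1 was higher and 2 lower. Over all tested genes, 36.4%, 34.7% and 49% were called in these comparisons, in the same order. Kat8, the H4 acetyltransferase of the MSL and NSL complexes, was higher in KO mTEChi (0.42, adjusted p = 0.0133) and KO cTEC (0.44, adjusted p = 0.00431). Kat5 (-0.82, adjusted p = 0.00016) and Kat6a (-0.32, adjusted p = 0.0166), the latter a partner of the BRPF scaffolds, were lower in KO cTEC. In WT mTEChi against WT mTEClo, Kat6a (-0.90), Kat6b (-1.26) and Kat8 (-0.60) were lower, as was Brpf3. Of all tested genes, 26.7% were lower in that comparison. Of the 3 other ING genes, Ing1 was lower in KO mTEChi (-0.46, adjusted p = 0.0185) and Ing2 higher in KO cTEC (0.59, adjusted p = 0.00966), beside the same KO shares of all tested genes.

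KAT7 was first described as a protein bound to the origin recognition complex, and it is known to help load the replicative helicase. Of 15 origin licensing genes (ORC and MCM subunits, Cdc6, Cdt1 and Gmnn), 6 were higher and 1 lower in KO mTEChi, 2 higher and 0 lower in KO mTEClo, and 9 higher and 0 lower in KO cTEC. Over all tested genes, 17.1% were higher and 19.3% lower in KO mTEChi, 18.9% and 15.8% in KO mTEClo, and 22.3% and 26.7% in KO cTEC. The median log2 fold changes of the list were 0.26, -0.10 and 0.57, beside -0.11, 0.01 and -0.02 over all genes tested. In KO cTEC, Mcm4 was at 83.1 CPM against 37.3 CPM in WT, and Mcm6 at 83.3 CPM against 45.6 CPM. In KO cTEC, 5 of 8 cell cycle markers and 10 of 12 thymocyte markers were also called higher. In KO mTEChi, by contrast, the summed cell cycle markers were lower, between 246 and 337 CPM against 404 to 482 CPM in WT, with 0 of 8 called higher and 4 lower. The part of these markers in the licensing values was not tested.

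The 5 nearest tested genes on each side of Kat7 on chromosome 11, 10 in all, were also read. In KO mTEChi, 1 was higher and 3 lower, in KO mTEClo 1 was higher and 0 lower, and in KO cTEC 4 were higher and 5 lower, beside backgrounds of 36.4%, 34.7% and 49%. The neighbours called in KO cTEC went in both directions, and Fam117a, singled out after its value was seen, was among those that fell (-1.33, adjusted p = 1.64e-06).

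Some of these counts could include reads from overlapping genes, because the library kits do not mark strand or, for Ing4, because the overlapping gene lies on the same strand. Exons of Brpf1 overlap the antisense gene Gm15492 by 255 bases, those of Jade1 overlap the antisense gene Gm31266 by 290 bases, and those of Brpf3 overlap 2 genes on the opposite strand by 272 and 119 bases. Exons of Ing4 share 1855 bases with Gm44597 on the same strand. The other 6 genes had no exon overlap in the annotation.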

How the data were processed

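RNA of sorted thymic epithelial cells was amplified with SMART-Seq v4 and made into Nextera XT libraries for paired-end sequencing, per the labels' protocols; these kits do not mark strand and the libraries carry no molecular identifiers. The authors deposited raw read counts per gene, made with featureCounts on mm10 per the submitters' processing notes; the aligner is not given in the sources used here. Counts were analysed with edgeR 4.0.16 in R 4.3.3: genes were kept by filterByExpr (minimum count 10), scaled by TMM, and fitted with 1 mean per group over all 18 libraries, leaving 12 residual degrees of freedom. The quasi-likelihood test gave 12 comparisons: KO against WT in each subset, subsets within each genotype, and differences in KO effect between subsets. p-values were adjusted by Benjamini-Hochberg over all 19364 genes and called below 0.05. RPKM used the gene lengths of the table. The fit was tested on simulated data.

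The mouse pool numbers in the labels pair the subsets within a genotype, since the subsets came from the same mice. Over the 18 same-pool pairs, deviations from group means correlated between -0.001 and 0.239, and 3 exceeded 0.1. Alternatives were RLE size factors, no filter, DESeq2 1.42.0, only the compared groups, the pool as a block and each library left out; the closing section gives their effect. The members and gene lists were chosen by known function, and no measured value enters the rule, but the choice was made with earlier results of these data known. By the rule for named genes, the text names all 10 members, may name any gene of the lists (other MYST and ING genes, origin licensing, neighbours of Kat7, sex-linked genes), and gives the genes with the highest Pearson r to a member on log2 CPM among named genes with a mean of at least 5 CPM. Gene positions and promoter windows are from RefSeq GRCm38.p6, and exon overlaps from GENCODE M21.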

Additional observations from a re-analysis of the deposited data

Results flagged for a closer look

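In 5 results the effect of the knockout differed between subsets by a test of the difference itself (edgeR's quasi-likelihood interaction term, adjusted over all tested genes). For Brpf1 the knockout effect in cTEC differed from that in mTEChi by 0.90 (log2, adjusted p = 0.00301) and from that in mTEClo by 0.98 (adjusted p = 0.00158), with the lower level in KO cTEC in 3 of 3 libraries. For Jade3 the effect in mTEClo exceeded that in cTEC by 1.12 (adjusted p = 0.0147). For Jade2 the effect in mTEChi differed from that in mTEClo by -0.85 (adjusted p = 0.0267) and from that in cTEC by -0.71 (adjusted p = 0.0295). The Jade2 differences were lost in 10 and 9 of 17 alternatives.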

How the results depend on the processing

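Of 120 results for the 10 genes (12 comparisons each), 47 were called; 31 of these calls were kept in every alternative, 16 were lost in at least 1, and 0 changed sign. Of the 73 results not called, 14 passed in at least 1 alternative and 25 changed sign in at least 1. The number of the 10 genes called moved by over 1.5 times as follows. For mTEChi against mTEClo in KO (4 called) it was 2 with only the compared groups fitted. For the difference in KO effect between mTEChi and mTEClo (1 called) it was 0 without the filter on low counts, and 3 with the mouse pool as a replicate block, with only the compared groups and with DESeq2. For the difference between mTEChi and cTEC (2 called) it was 1 without the filter and 1 with only the compared groups. For the difference between mTEClo and cTEC (2 called) it was 4 with the replicate block. With 1 library left out, the lowest and highest counts were 2 and 4 for mTEChi against mTEClo in KO, 3 and 8 for mTEClo against cTEC in WT, 2 and 4 for mTEClo against cTEC in KO, and, for the differences in KO effect, 0 and 2 for mTEChi against mTEClo, and 1 and 2 for mTEChi against cTEC. The replicate block changed the calls given beside the results and no other call; it could not be used for KO against WT, whose pools are different mice. RLE scaling moved the median of all genes in KO mTEChi against KO cTEC from 0.04 to 0.14. Low counts limit Kat7 in the KO libraries, and 3 pools per group limit all tests.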
